A study of Homo sapiens with 2 samples.

Results

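The enzymes that build fatty acids and join them into phospholipids and triglycerides were followed as messages in HEK293T, a long-established line of human embryonic kidney origin. The list held 42 symbols, of which 41 matched a gene ID present in both deposited count tables, out of 57820 IDs in all. ACACA, the carboxylase that makes malonyl-CoA for FASN, matched no ID and has no value here. Of the 41, 39 averaged at least 1 CPM (counts scaled to the size of each library), the level above which 12747 genes were called measured. The other 2, AGPAT1 and CHKB, had 0 and 0 reads and 0 and 1 reads in the 2 libraries.

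One condition was a control siRNA and the other an siRNA against SRα, with 1 library each, called here the control library and the depleted library and always named in that order. The labels state no other treatment and no time after transfection. SRα, the product of SRPRA, is the receptor subunit that takes ribosomes carrying the signal recognition particle (SRP) to the membrane of the endoplasmic reticulum (ER). The question for these genes was whether messages of enzymes inserted into the ER membrane and messages of cytosolic enzymes differed in level between the libraries. The ribosome profiling named in the design was not analysed here.

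De novo synthesis of lipids is divided between compartments. Cytosolic enzymes turn citrate or acetate into acetyl-CoA and then into palmitate. Elongation, desaturation, and most steps that attach acyl chains to glycerol and add a headgroup are carried out by proteins that span or sit in the ER membrane. Transcription of many of these genes is controlled by SREBP factors, and proliferating cells depend on the pathway for membrane growth. Many ER membrane enzymes carry hydrophobic segments of the kind that SRP recognises as they leave the ribosome.

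The libraries held 2445200 and 3896721 reads assigned to genes. SRPRA had 507 and 449 reads, or 205 and 117 CPM, a log2 ratio (depleted over control) of -0.81 (95% counting interval -0.998 to -0.63). Of 7 genes listed as markers of HEK293 cells, VIM, CDH2 and NEFM were well read, KRT8 and KRT18 were lower, PAX2 had 1 and 7 reads and NEFL matched no ID. Of 6 markers of other cells, the leukocyte gene PTPRC and the fat cell genes ADIPOQ and PLIN1 were at 0 in both libraries, ALB had 0 and 1 reads, APOA1 had 3 and 4, and PECAM1 matched no ID. With 1 library per condition no test was possible. All intervals below cover counting error in these 2 libraries only, and fewer cells expressing a gene cannot be told apart from less RNA per cell.

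Messages of the pathway stood at nearly the same level in both libraries. Of the 39 measured members, 24 had a lower CPM in the depleted library and 15 a higher one, where 48.6% of all measured genes were lower, and their median log2 ratio was -0.06 against 0.01 over all measured genes. None was 1.5-fold lower, against 6.97% of measured genes, and 2 were 1.5-fold higher, ACACB and ACSS2, against 6.55%. None was 2-fold lower or higher, against 2.57% and 2.15%. For 27 of the 39 the whole counting interval lay within 1.5-fold of equality, and for 33 within 2-fold. Summed over the measured members, 6090 and 6006 CPM gave a log2 ratio of -0.02 (-0.05 to 0.01). The sum over all measured genes gave 0.036 (0.034 to 0.039).

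Members were read more deeply than most genes, with medians of 152 and 222 reads against 58 and 88 over all measured genes. At a mean level of 20 CPM or more, 0.338% of genes were 1.5-fold lower and 0.397% 1.5-fold higher, and of the 32 members in this range 0 were either. The SD of log2 ratios was 0.1501 over these 32 members and 0.194 over all 6807 genes in the range.

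The list was dominated by 3 messages. ATP citrate lyase (ACLY), which makes cytosolic acetyl-CoA, fatty acid synthase (FASN), which builds palmitate, and stearoyl-CoA desaturase (SCD), which makes monounsaturated chains, together took 54.2% of the members' reads in the control library (exact 95% interval 53.4 to 55.0) and 55.4% (54.7 to 56.0) in the depleted library. Per kilobase of annotated exon, ACLY stood at 225 CPM on average over the libraries, FASN at 153 and SCD at 132. By this measure they ranked 143, 252 and 308 among 11460 measured protein-coding genes. No other member averaged over 46 CPM per kilobase. The whole list took 0.617% (0.607 to 0.627) of gene reads in the control library and 0.593% (0.586 to 0.601) in the depleted library. These intervals do not overlap, so as a share of library totals the list was slightly lower, beyond counting error.

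Below these 3 came HACD3, PTDSS1, ELOVL5 and ELOVL1. They stood at 45.7, 47.1, 46.6 and 37.9 CPM per kilobase in the control library. In the depleted library they stood at 46.2, 43.5, 42.3 and 42.7. Their order differed between the libraries, so these neighbours cannot be ranked. At the low end, ACACB stood at 0.326 CPM per kilobase and DGAT2 at 0.369 on average, while LPIN1 had 1.25, FADS3 1.54 and AGPAT3 1.64. The ratio between the most and least abundant member was thus far larger than any difference between the libraries.

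**Figure D1:**
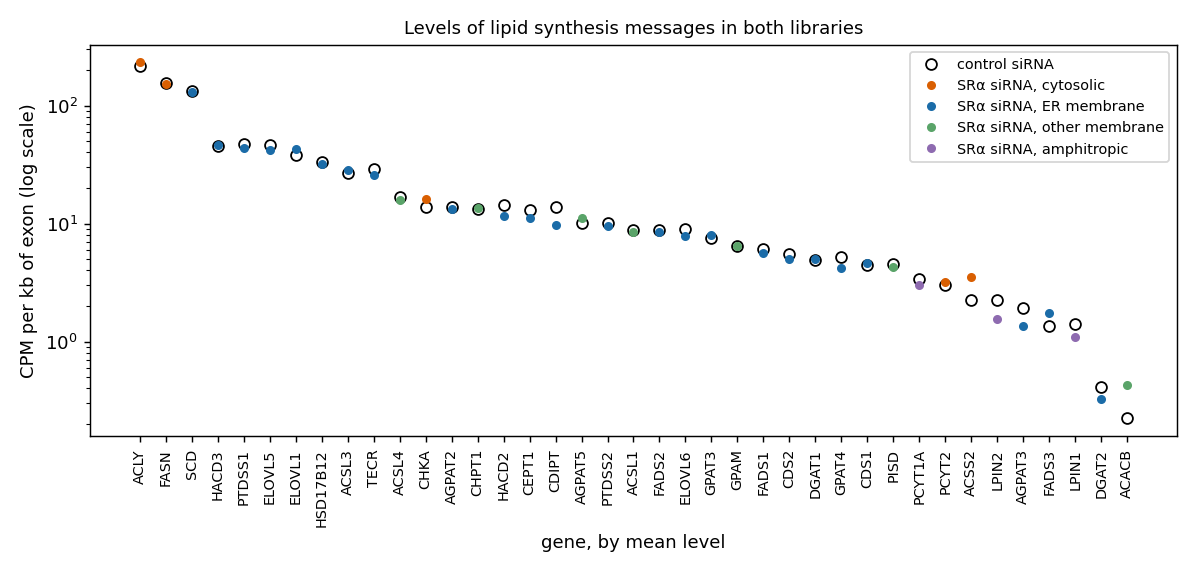
Level of each of the 39 measured members in CPM per kilobase of exon (log scale, vertical axis), ordered by mean level, with open circles for the control library and filled circles for the depleted library, coloured by place of the enzyme. ACLY, FASN and SCD lie above 100, and open and filled circles nearly coincide for most genes.

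Acyl chain synthesis in the cytosol was led by FASN and ACLY. FASN (ENSG00000169710.6) had 3583 and 5460 reads, or 1447 and 1419 CPM, with a log2 ratio of -0.03 (-0.09 to 0.03). Its level was the same in both libraries within counting error. ACLY (ENSG00000131473.12) had 2811 and 4655 reads, or 1135 and 1210 CPM, with a log2 ratio of 0.09 (0.02 to 0.16). ACLY was thus higher in the depleted library by a ratio of 1.07, just beyond counting error. Scaled by library totals its log2 ratio was 0.06, and no member's interval then lay above 0.

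The less-read genes of this step lay further from equality. ACSS2 (ENSG00000131069.15), which makes acetyl-CoA from acetate, had 30 and 73 reads, or 12.1 and 18.97 CPM, a log2 ratio of 0.64 (0.02 to 1.31). ACACB (ENSG00000076555.11), the acetyl-CoA carboxylase tied to the mitochondrial outer membrane, had 8 and 24 reads, or 3.23 and 6.24 CPM, a log2 ratio of 0.92 (-0.25 to 2.31). Both were higher in the depleted library, but the interval of ACSS2 reached almost to 0 and that of ACACB passed it.

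Chain elongation in the ER adds carbons through a cycle of condensation, reduction and dehydration. Of its 7 members 5 were lower in depleted cells, where 48.6% of all measured genes were lower, and the median log2 ratio was -0.14. The condensing enzyme ELOVL5, which extends polyunsaturated chains, had 178 and 161 CPM (-0.14, interval -0.32 to 0.04), and ELOVL6, which extends palmitate, had 65.4 and 57.4 CPM (-0.19, -0.49 to 0.11). ELOVL1, which makes very long saturated chains, went the other way with 94.9 and 107 CPM (0.17, -0.06 to 0.41). As a share of the summed level of these 3 messages per kilobase, ELOVL1 made up 40.5% in the control library and 46.0% in the depleted library, and ELOVL5 49.9% and 45.5%.

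The remaining enzymes of the cycle included one whose interval lay wholly below 0. HACD2 (ENSG00000206527.5), a dehydratase, had 190 and 240 reads, or 76.7 and 62.4 CPM, for a log2 ratio of -0.30 (-0.58 to -0.02). Its homologue HACD3, the most-read member of the step, had 803 and 1261 reads, or 324 and 328 CPM, for a log2 ratio of 0.02 (-0.11 to 0.14). The reductases HSD17B12 and TECR, which catalyse the first and last reductions of the cycle, had -0.04 (-0.19 to 0.10) from 260 and 252 CPM and -0.16 (-0.34 to 0.02) from 171 and 153 CPM.

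Desaturases insert double bonds in the ER membrane. SCD (ENSG00000099194.5) had 1777 and 2678 reads, or 718 and 696 CPM, a log2 ratio of -0.04 (-0.13 to 0.04). FADS1 and FADS2, which act in turn on polyunsaturated chains, had -0.11 (-0.41 to 0.20) and -0.06 (-0.30 to 0.18), and FADS3, which acts on sphingoid bases, had 0.36 (-0.42 to 1.19) from 21 and 42 reads. No difference was detectable for any of the 4 at this depth. The intervals of SCD and FADS2 left room for less than a 1.5-fold difference, whereas that of FADS3 reached beyond 2-fold upward.

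Acyl-CoA ligases activate free fatty acids. ACSL3, found on the ER and on lipid droplets, had 479 and 793 reads, or 193 and 206 CPM, for a log2 ratio of 0.09 (-0.07 to 0.26). ACSL4, which prefers arachidonate, had -0.09 (-0.32 to 0.14) and ACSL1 had -0.07 (-0.39 to 0.25). ACSL3 was the most abundant of the 3 per kilobase in both libraries, with 51.1% and 54.1% of their sum.

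Acyltransferases place the first and second chain on glycerol phosphate. Of the 6 measured, 3 were lower and 3 higher, with a median of -0.03. The first step is shared by GPAM on mitochondria, with 156 and 243 reads (0.00, -0.29 to 0.30), and by GPAT3 and GPAT4 in the ER, with 0.08 (-0.37 to 0.55) and -0.31 (-0.70 to 0.08). For the second step AGPAT2 had -0.07 (-0.55 to 0.42), AGPAT5 had 0.14 (-0.20 to 0.48) and AGPAT3, with 54 and 59 reads, had -0.50 (-1.07 to 0.05). AGPAT3 had the lowest ratio of all ER membrane members, and its interval included equality.

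AGPAT1 was listed at 0 in both libraries. A count of 0 allows up to 3 reads, which is 1.21 CPM in the control library and 0.780 CPM in the depleted library. Of the 40 protein-coding genes nearest to AGPAT1 in GENCODE 29 that have an ID in the tables, 36 were also at 0 in both libraries, against 5747 of 19263 protein-coding genes in all. Alignments that were not unique, which were left out of gene counts, made up 79.6% and 76.5% of all entries in the tables. Whether these explain the zeros was not tested, and the count is no measure of how much AGPAT1 message the cells contain.

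The lipins, which turn phosphatidic acid into diacylglycerol, and the enzymes that finish triglycerides were thinly read. LPIN1 had 41 and 50 reads, for a log2 ratio of -0.35 (-0.97 to 0.28), and LPIN2 had 38 and 41 reads and -0.52 (-1.20 to 0.15), the lowest ratio of any measured member. DGAT1, the ER enzyme that adds the third chain, had 50 and 80 reads and 0.04 (-0.49 to 0.58), and the unrelated DGAT2 had 8 and 10 reads and -0.30 (-1.81 to 1.23). At these counts no difference was detectable in any of them.

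Choline and ethanolamine phospholipids are made by a kinase, a cytidyl transferase and a transferase in sequence. CEPT1, the ER transferase for both headgroups and the most-read member of the step, had 269 and 358 reads, or 109 and 93.0 CPM, for a log2 ratio of -0.22 (-0.46 to 0.01). CHPT1, the choline transferase of the Golgi, had 196 and 315 reads and 0.05 (-0.21 to 0.31). Of the summed level of CEPT1 and CHPT1 per kilobase, CHPT1 made up 50.5% in the control library and 55.2% in the depleted library. The intervals of their ratios overlapped, and both included 0.

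The soluble enzymes of the same route had small ratios. The choline kinase CHKA had 132 and 240 reads, or 53.3 and 62.4 CPM, and 0.23 (-0.09 to 0.54). PCYT2, the cytidyl transferase for ethanolamine, had 0.10 (-0.42 to 0.63), and PCYT1A, the rate-controlling cytidyl transferase for choline, which moves between nucleus and membranes, had -0.16 (-0.63 to 0.31). All 3 intervals included 0. For CHKB, the other choline kinase, 72.5% of the exonic length is also annotated in the read-through gene CHKB-CPT1B, and the latter had 0 reads in both libraries, so its 0 and 1 reads are uncertain.

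Phosphatidylserine is made by exchange of headgroups in the ER and is decarboxylated in mitochondria. PTDSS1 had 734 and 1054 reads, or 296 and 274 CPM, for a log2 ratio of -0.11 (-0.25 to 0.02). PTDSS2 had -0.06 (-0.37 to 0.24), and the mitochondrial decarboxylase PISD had -0.07 (-0.57 to 0.45). All 3 were lower by small amounts, each within counting error.

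The branch through CDP-diacylglycerol held the other member whose interval lay wholly below 0. CDIPT (ENSG00000103502.9), which makes phosphatidylinositol, had 113 and 125 reads, or 45.6 and 32.5 CPM, for a log2 ratio of -0.49 (-0.87 to -0.11). Exons of other genes, either strand included, cover 23.9% of its exonic length in GENCODE 29. Reads that the counting held ambiguous between genes were not assigned. Whether any came from CDIPT is not known, since the strand setting is not given. For the synthases that supply its substrate, both intervals included 0 and overlapped that of CDIPT. CDS2 had 164 and 231 reads and -0.14 (-0.44 to 0.16), and CDS1 had 49 and 79 reads and 0.05 (-0.48 to 0.60).

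**Figure D2:**
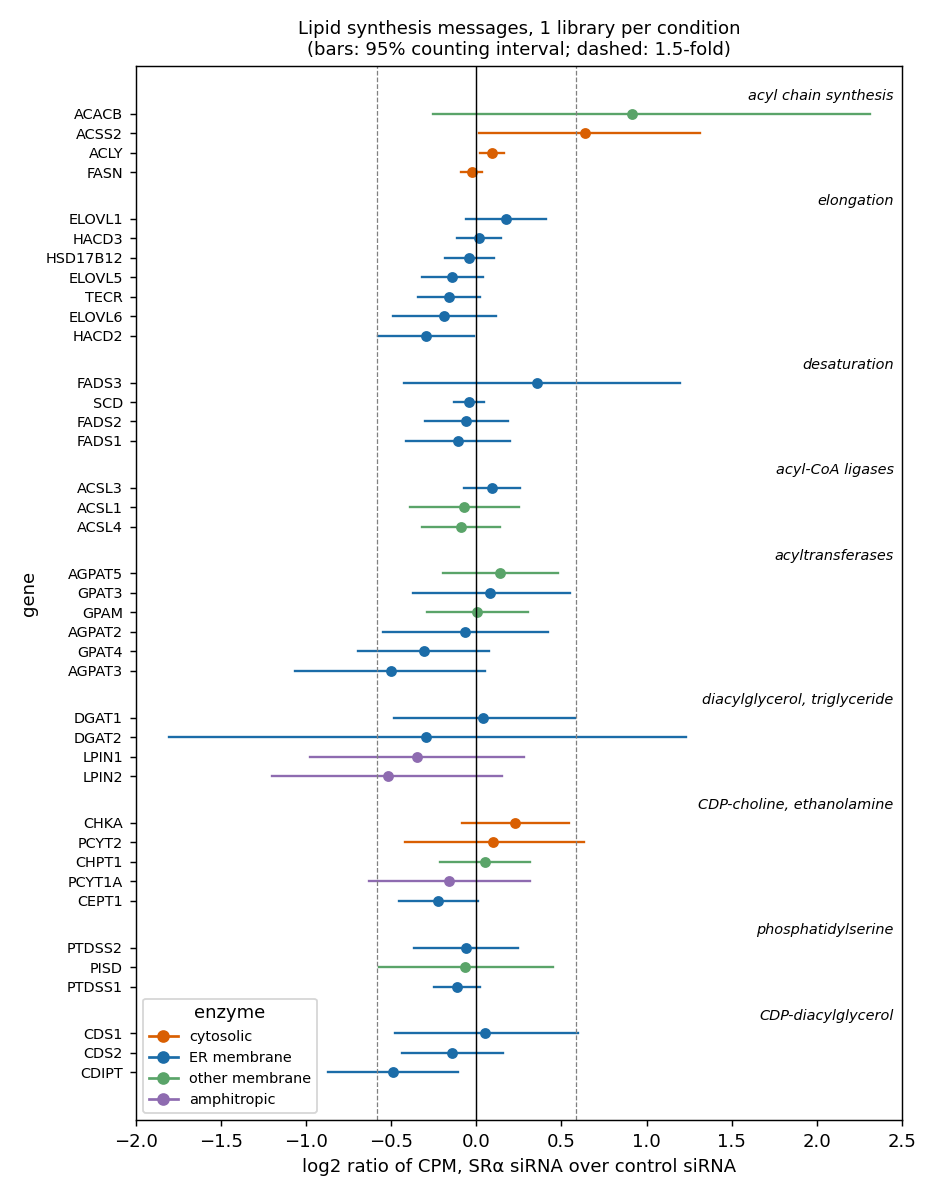
Log2 ratio of CPM, SRα siRNA over control siRNA (horizontal axis), for each of the 39 measured members grouped by role, with 95% counting intervals as bars and colours for the place of the enzyme. HACD2 and CDIPT lie wholly below 0, ACLY and ACSS2 wholly above, and only ACACB and ACSS2 have points beyond the dashed line at 1.5-fold.

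Counted over all measured members, 2 intervals lay wholly below 0, where 3.39% of measured genes had such an interval, and 2 wholly above, where 5.46% had. With the scaling used here, these shares are near the background. At 20 CPM or more, 2 of 32 members lay below and 1 above, against 293 and 570 of 6807 genes. Both counts moved with the processing. With library totals in place of the TMM factors of edgeR, which shifts the median of all measured genes to -0.03, 6 lay below and 0 above, against 4.81% and 3.57% of measured genes. With the trend with GC content removed, 4 lay below and 4 above, against 2.82% and 5.39%. In both of these settings the share of members below 0 exceeded that of all measured genes. With the GC trend removed the share above 0 did too.

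The medians of cytosolic and ER membrane enzymes lay on opposite sides of 0 by small amounts. Places were assigned to enzymes with earlier results of these data known. Of the 7 listed cytosolic enzymes 5 were measured (ACLY, FASN, ACSS2, CHKA and PCYT2). Of these, 4 had a higher CPM in the depleted library, and the median log2 ratio was 0.10. That median was the ratio of PCYT2, from 51 and 85 reads (-0.42 to 0.63). Of 25 ER membrane enzymes 24 were measured, 17 of them lower and 7 higher, with a median of -0.09. Over all measured genes 48.6% were lower. Over coding genes with 2 or more predicted hydrophobic segments, described below, 57.9% were. The difference of the medians, ER membrane minus cytosolic, was -0.19. No test of this difference is possible with 1 library per condition.

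The groups overlapped. Cytosolic ratios ran from -0.03 (FASN) to 0.64 (ACSS2) and ER membrane ratios from -0.50 (AGPAT3) to 0.36 (FADS3). Summed over reads, the cytosolic enzymes had 2668 and 2732 CPM, a log2 ratio of 0.03 (-0.01 to 0.08), which with ACLY left out was -0.01. ER membrane enzymes had 2985 and 2848 CPM, a log2 ratio of -0.07 (-0.11 to -0.02). The sum over all measured genes was 0.04, so the cytosolic sum was near that background. Over coding genes with 2 or more predicted hydrophobic segments the sum was -0.03. In the sums the difference between the groups was -0.10. It was -0.06 without ACLY and -0.17 without FASN, where the cytosolic sum gave 0.10, so the size of the difference in the sums rested on these 2 messages. The median GC content was 53.2% for cytosolic and 50.4% for ER membrane members. Removing the trend of the ratio with GC content over all measured genes gave a difference of medians of -0.27.

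Members placed elsewhere did not fall in a line between these groups. The 3 enzymes that move between cytosol or nucleus and membranes, PCYT1A, LPIN1 and LPIN2, were all lower, with a median of -0.35. They had 38 to 67 reads each in the control library, and each interval included 0. Over all measured genes 48.6% were lower. The summed log2 ratio of the 3 enzymes was -0.30 (-0.62 to 0.02). The 7 enzymes of mitochondrial, Golgi or several membranes had a median of 0.00, with 3 lower and 4 higher. When the 3 mobile enzymes were counted as cytosolic and all membrane enzymes were pooled, the difference of medians was -0.10.

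The longest annotated protein of each member was searched for hydrophobic segments long enough to span a membrane. Of the 39 measured members, 10 had no segment, 5 had 1 and 24 had 2 or more. The median log2 ratio was -0.05, -0.03 and -0.06 in these classes. A first segment starting in the first 60 residues was found in 10 members, among them ELOVL1, HACD2, ACSL3 and AGPAT3, with a median of -0.08, and 19 members with a later first segment, among them SCD, CEPT1 and CDIPT, had -0.06. In the medians the classes lay closer together than the groups by place of the enzyme, but not in the sums. Summed over reads, members without a segment had a log2 ratio of 0.06 (0.001 to 0.11) and those with 2 or more had -0.08 (-0.12 to -0.03), a difference of -0.13, against -0.10 by place. Without ACLY, chosen after seeing the data, the sum over members without a segment was -0.02 (-0.12 to 0.08) and the difference -0.06. HSD17B12, an ER membrane protein, and ACSL1, AGPAT5 and PISD, placed at other membranes, had no predicted segment. Soluble FASN and ACSS2 had 1 each. The prediction thus does not match the place of every enzyme, and the class without a segment is not a class of soluble enzymes.

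Over all measured protein-coding genes, 1694 with 2 or more such segments had a median log2 ratio of -0.06, with 57.9% of them lower in the depleted library. The 7729 without a segment had 0.03, with 45.4% lower. Summed over reads, the former gave a log2 ratio of -0.03 and the latter 0.05. The members with 2 or more segments, 62.5% of them lower at a median of -0.06, stood beside other multi-segment genes at the same median.

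**Figure D3:**
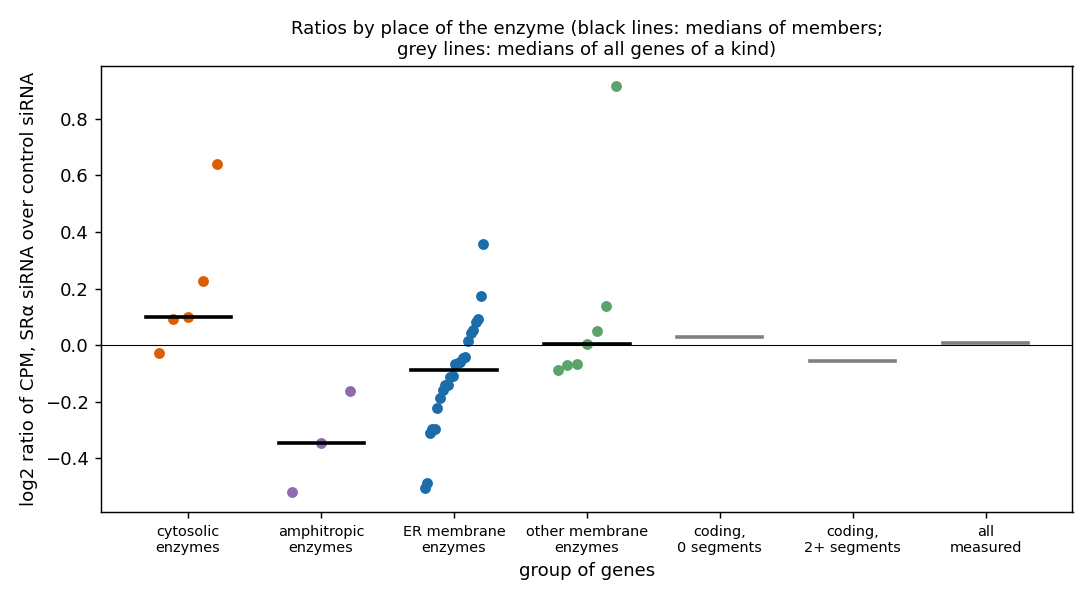
Log2 ratios (vertical axis) of the measured members by place of the enzyme (points, with black lines at the medians) and, as grey lines, the medians of all measured protein-coding genes with 0 or with 2 or more predicted hydrophobic segments and of all measured genes. Medians are 0.10 for cytosolic and -0.09 for ER membrane enzymes, and the grey lines lie at 0.03, -0.06 and 0.01.

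RefSeq promoters (GRCh38.p14) were on hand for 34 of the 42 symbols, at 60 start sites. None was on hand for FASN, HSD17B12, PTDSS1, CHKA, GPAT4, AGPAT5, DGAT1 or DGAT2. The 250 bases before the outermost start are printed for the 4 members whose counting interval lay wholly to one side of 0, so that the higher (ACLY, ACSS2) and the lower (HACD2, CDIPT) can be set beside each other. Capitals mark CCAAT, the letters of NF-Y sites, and GGGCGG, the GC box of SP1-type factors, on either strand. These motifs do not overlap each other in the windows printed.
ACLY, chr17:41919023-41919272, minus strand: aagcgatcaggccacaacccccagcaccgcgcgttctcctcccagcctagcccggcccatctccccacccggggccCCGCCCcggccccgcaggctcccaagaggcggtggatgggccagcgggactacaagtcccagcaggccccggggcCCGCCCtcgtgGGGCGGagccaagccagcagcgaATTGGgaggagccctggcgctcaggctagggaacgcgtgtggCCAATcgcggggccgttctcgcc
ACSS2, chr20:34874739-34874988, plus strand: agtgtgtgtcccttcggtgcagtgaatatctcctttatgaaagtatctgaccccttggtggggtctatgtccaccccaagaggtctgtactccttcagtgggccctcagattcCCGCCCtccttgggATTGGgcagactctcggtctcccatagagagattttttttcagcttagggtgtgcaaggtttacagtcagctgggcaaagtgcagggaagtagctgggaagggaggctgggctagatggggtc
HACD2, chr3:123585054-123585303, minus strand: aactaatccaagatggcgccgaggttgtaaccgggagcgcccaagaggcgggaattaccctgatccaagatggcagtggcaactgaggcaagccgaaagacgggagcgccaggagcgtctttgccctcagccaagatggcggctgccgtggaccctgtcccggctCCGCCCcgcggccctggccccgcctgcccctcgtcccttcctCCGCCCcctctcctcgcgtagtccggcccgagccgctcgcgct
CDIPT, chr16:29863227-29863476, minus strand: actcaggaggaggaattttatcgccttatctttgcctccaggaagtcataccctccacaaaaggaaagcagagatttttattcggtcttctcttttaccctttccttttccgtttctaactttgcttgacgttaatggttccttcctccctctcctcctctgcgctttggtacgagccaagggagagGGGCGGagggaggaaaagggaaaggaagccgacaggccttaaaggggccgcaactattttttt

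Both higher members hold CCAAT in these windows and both lower ones do not, a comparison of 4 genes chosen by their ratios. This contrast depends on the start taken, since the window at another start of ACSS2 holds no CCAAT. ACACB and AGPAT3, among others, also differ in CCAAT between their starts. Among the 31 measured members with a promoter, taken at the outermost start, 12 with CCAAT had a median log2 ratio of 0.05, with 5 lower, and 19 without had -0.07, with 14 lower. These include the 4 genes printed. Without them the medians were -0.01 over 10 genes and -0.07 over 17. The same division by GGGCGG gave -0.05 over 24 members with it, 13 of them lower, and -0.14 over 7 without it, 6 of them lower. CCAAT was present in 38.3% of the 60 member promoters and in 32.7% of 22198 promoters of protein-coding genes. GGGCGG was present in 75.0% and 53.7%.

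Motifs of lipid and sterol regulators were rare in the promoters searched, which did not include that of FASN. TCACNCCAC, a form of the sterol regulatory element that SREBP binds, was found on either strand in 1 of the 60 member promoters, at one of the starts of ACSL1, and in 0.883% of protein-coding promoters. The E-box CACGTG was found in 5.0% and 7.37%. These counts say only which letters stand in the 250 bases before each start.

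Other genes of the pathway came from a list of 52 that all had IDs. Of the 46 measured, 28 were lower and 18 higher, with a median log2 ratio of -0.10, against 48.6% lower over all measured genes. At least 1.5-fold lower were 3 and higher 2, against 6.97% and 6.55% of all measured genes, so neither count exceeded the background. SREBF1, which encodes the SREBP factor of fatty acid synthesis, had 161 and 218 reads and -0.20 (-0.50 to 0.10). Among the 8 measured regulators 6 were lower. Over the 46, 2 intervals lay wholly below 0 and 2 wholly above, against 3.39% and 5.46% of all measured genes. The regulator MID1IP1 had 411 and 525 reads and -0.28 (-0.47 to -0.09). ETNK2, under 5 CPM, had 16 and 10 reads and -1.26 (-2.62 to -0.09). Above 0 were ETNK1 at 0.22 (0.01 to 0.43) and TAMM41. ETNK2 alone was 2-fold lower and none 2-fold higher, against 2.57% and 2.15% of all measured genes.

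From 5 CPM upward, the lowest ratios were those of LPIN3, a lipin, at -0.69 (-1.64 to 0.23), ELOVL7, an elongase, at -0.55 (-1.24 to 0.12) and PCYT1B, a cytidyl transferase, at -0.44 (-1.55 to 0.65). The highest were the desaturase SCD5 at 0.61 (-0.06 to 1.34), TAMM41, a mitochondrial CDP-diacylglycerol synthase, at 0.35 (0.00 to 0.70), and the elongase ELOVL2 at 0.33 (-0.18 to 0.87). As paralogs of members, LPIN3 had the same sign as LPIN1 and LPIN2, and SCD5 the opposite sign to SCD, in both cases within counting error.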

How the data were processed

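Per the labels' protocols, TRIzol RNA went into TruSeq stranded mRNA libraries. Each deposited table lists raw read counts by Ensembl gene ID, with no normalization by the authors, and the 5 summary lines that name no gene were left out. The tools were STAR 2.5.2b and cutadapt on hg19, per the submitters' processing notes. How reads were counted, with which annotation and strand setting, is not given in the sources used here, so reads of overlapping or antisense genes may be mixed or lost.

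Gene IDs, versions removed, were paired with symbols through a name table. Libraries were scaled by TMM factors (edgeR 4.0.16, R 4.3.3), giving effective sizes of 2476276 and 3847820. Log2 ratios used a prior count of 0.5, and 95% intervals are exact (Clopper-Pearson) binomial intervals of the 2 counts. Reads are not independent molecules, so intervals and the limit of 3 reads for a count of 0 cover counting error only. The interval calculation was checked on simulated Poisson counts, the kind of error it assumes, so the check does not cover variation between libraries.

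Exonic length, GC content and coding sequence came from GENCODE 29, by gene ID, and no coordinates from it are printed. Segments are windows of 19 residues with a Kyte-Doolittle mean of at least 1.6, taken from translated GENCODE coding sequences where RefSeq proteins had been planned. The members and lists, the places assigned to enzymes and the naming rule were chosen with earlier results of these data known. By that rule every member is named, with SRPRA, SREBF1 and the 3 highest and 3 lowest other pathway genes of at least 5 CPM. Alternative scalings were library totals, size factors of DESeq2 1.42.0, upper quartiles, and totals without the 10 most-read and mitochondrially encoded genes. Other alternatives were a prior count of 2, removal of the GC trend with a spline of 5 degrees of freedom, other filters, sums, and pooled places.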

Additional observations from a re-analysis of the deposited data

How the results depend on the processing

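No paired analysis was possible because each condition has 1 library, and no replicate could be left out. DESeq2 size factors, upper quartile factors and a prior count of 2 shifted no median by more than the half-width of the counting interval of its group's summed reads. The median over all measured members was -0.100 with library totals and -0.096 with totals that leave out the 10 most-read and mitochondrially encoded genes. It was -0.020 as a sum of CPM, and -0.017 as a sum without FASN, chosen after seeing the data. The cytosolic median of 0.10 became 0.204 with the GC trend removed, 0.163 with no filter, 0.034 as a sum, 0.032 with mobile enzymes added, and -0.010 as a sum without ACLY, chosen after seeing the data. The difference between ER membrane and cytosolic enzymes became -0.268, -0.250, -0.102, -0.098 and -0.058 in the same order. It was negative in every alternative run, all of them on the same 2 libraries. Alternative scalings move all ratios almost alike, so they could not change this difference (-0.187 with library totals). With no filter 1 member, CHKB, passed 2-fold, from 0 and 1 reads. With at least 20 CPM required, 0 members passed 1.5-fold. Of 234 values of single members under 6 alternatives, 11 changed sign, all from members within 0.068 of 0. FASN moved from -0.03 to 0.09 with the GC trend removed. The median of the 7 enzymes of other membranes changed sign to -0.03 with library totals. Members with under 20 CPM are limited by depth.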
